A study of Mus musculus with 30 samples.

Results

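The genes described here are 5 regulators that act back on the tumour suppressor p53: Mdm2, Mdm4, Ppm1d, Ccng1 and Rchy1. They were taken as a list of names, not by any measured value, from the 18194 genes that have a probe set of their own on the Affymetrix array. All 5 were on the array and all 5 passed the filter on low signal, which left 12675 tested genes. Each gene is read from the probe set with the highest mean over the 30 arrays, and its other probe sets serve as a check.

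p53 is a transcription factor that DNA damage stabilises, and some of its target genes encode proteins that limit it. Mdm2 is a ubiquitin ligase that marks p53 for degradation, and Mdm4 (MdmX) is its relative, which binds and masks the activation domain of p53 and partners Mdm2. Rchy1 (Pirh2) is another RING ubiquitin ligase of p53. Ppm1d (Wip1) is a phosphatase that removes activating phosphates from p53 and from the damage kinases, and Ccng1 (cyclin G1) brings protein phosphatase PP2A to Mdm2. In fibroblasts, Mdm2 and Ccng1 are textbook p53 targets.

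All arrays came from mouse embryonic fibroblasts of C57BL/6 x 129SvJ background, isolated from E13.5 embryos, that carry p53 LSL/LSL alleles. Such alleles hold a stop cassette that keeps p53 silent until Cre recombinase removes it, and every group below carries them, controls included. In the time course, cells had 24 h of adenovirus with Cre (AdenoCre, p53 restored) or with GFP (AdenoGFP), then 500 nM doxorubicin, a DNA-damaging drug, for 1, 3, 6 or 9 h, or none at 0 h, with 1 array for each virus and time (5 against 5). No group received Cre without regaining p53, so restoration of p53 and other effects of the viruses cannot be told apart there.

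Both siRNA experiments used AdenoCre cells that then had 24 h of siRNA and 13 h of 100 nM doxorubicin. The lincP21KD experiment held siP53 (against p53, 3 arrays), siLincp21 (against lincRNA-p21, a p53-induced noncoding RNA, 3 arrays) and siScramble, a non-targeting pool (2 arrays). The hnRNPKKD experiment held siP53, siLincp21, siHnrnpk (against the RNA-binding protein hnRNP-K) and siControl, with 3 arrays each. The labels do not say whether replicates in the siRNA experiments were separate cultures or embryos. The siRNA p-values therefore measure only the spread between these arrays, which may be technical. In the time course no combination of virus and time was repeated, so spread between replicates was not measured there. The SE and p-values of its virus effect measure how the AdenoCre minus AdenoGFP difference varied over the times. That variation includes any change of the difference with time in doxorubicin. Those of its slopes measure departure from a straight line on hours. The levels of the p53 and lincRNA-p21 transcripts are not analysed here.

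The values are log2 RMA signals as deposited. The time course arrays had medians of 4.98 to 5.03, those of lincP21KD 5.55 to 5.66 and those of hnRNPKKD 4.83 to 4.91, so no level is compared across experiments. Hnrnpk, the gene targeted by siHnrnpk, read 8.38, 8.34 and 9.94 in the siHnrnpk arrays, against 12.68, 12.03 and 12.47 in the siControl arrays. Cdkn1a, which encodes the p53-induced cell cycle inhibitor p21, was 3.85 ± 0.15 higher with AdenoCre than with AdenoGFP, and its siP53 change was −2.07 ± 0.11 in the lincP21KD and −2.64 ± 0.18 in the hnRNPKKD experiment. All 9 fibroblast markers were above the filter, with mean log2 levels between 7.28 and 14.5, and so were 4 of 6 macrophage, 1 of 5 endothelial, 4 of 5 epithelial, 3 of 4 skeletal muscle and 5 of 5 neural markers. The markers below it were Ptprc and Adgre1 (macrophage), Pecam1, Cdh5, Tek and Emcn (endothelium), Cdh1 (epithelium) and Myod1 (skeletal muscle).

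The mean log2 level of several of the 6 marker lists did not overlap between a group and its control. How many other gene lists would separate in this way was not measured, so the counts describe these lists only and are not shown to be unusual. With AdenoCre 3 lists did not. The fibroblast list lay between 12.10 and 12.47 with AdenoCre, against 12.52 to 12.72 with AdenoGFP, the epithelial list between 4.83 and 5.19, against 5.25 to 5.46, and the muscle list between 6.43 and 6.65, against 6.02 to 6.18. In the lincP21KD experiment 4 lists did not overlap with siP53. The fibroblast list lay between 11.94 and 12.08 with siP53, against 11.69 to 11.75 in siScramble, the epithelial list between 6.13 and 6.27, against 6.01 to 6.11, the neural list between 6.83 and 6.95, against 6.60 to 6.62, and the macrophage list between 5.18 and 5.31, against 5.54 to 5.64. All 6 lists did not overlap between siLincp21 and siScramble, with the fibroblast list (11.98 to 12.12) and the neural list (6.93 to 7.02) higher with siLincp21 and the other 4 lower, among them the epithelial list (5.69 to 5.80). In the hnRNPKKD experiment the fibroblast list lay between 12.08 and 12.15 with siP53, 11.95 and 11.99 with siLincp21 and 11.47 and 11.56 with siHnrnpk, against 11.63 to 11.73 in siControl. There the epithelial list lay between 4.56 and 4.81 over the knockdown arrays, against 5.23 to 5.32 in siControl, and the macrophage list between 4.71 and 4.98 with siP53 and 5.16 and 5.20 with siHnrnpk, against 5.24 to 5.38. The neural list lay between 7.03 and 7.17 with siLincp21 and 7.35 and 7.47 with siHnrnpk, against 6.78 to 6.89 in siControl, and the endothelial list between 4.39 and 4.49 with siHnrnpk, against 4.08 to 4.28. The part of these shifts in the results below was not tested, and in bulk RNA fewer cells of a type and less RNA per cell cannot be told apart.

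In the time course, 4 of the 5 regulators were higher with AdenoCre than with AdenoGFP, where 12.9% of all tested genes rose, 6.24% fell and 19.1% were called in either direction. A gene is called here at an adjusted p below 0.05, from limma with Benjamini-Hochberg adjustment over all tested genes. Ccng1 and Mdm2 rose most and ranked 16 and 33 of 12675 genes by size of increase. Ppm1d and Rchy1 rose by about 1.5-fold, and Mdm4 did not pass the test. The median log2 difference was 0.59 over the regulators and 0.04 over all tested genes.

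Ccng1 read 12.92, 12.30, 12.93, 13.29 and 13.45 at 0, 1, 3, 6 and 9 h with AdenoCre, against 10.37, 10.52, 10.38, 10.22 and 10.49 with AdenoGFP. The groups did not overlap, and the gap was already wide before doxorubicin. The log2 difference was 2.58 ± 0.17 (SE, 5 pairs, adjusted p = 0.000209), or 5.99-fold. By time it was 2.55, 1.78, 2.55, 3.08 and 2.96, lowest at 1 h.

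Mdm2 read 10.53, 10.43, 11.70, 11.71 and 12.09 with AdenoCre at those times, against 9.25, 9.45, 9.11, 8.87 and 9.03 with AdenoGFP. All AdenoCre arrays were above all AdenoGFP arrays, and the AdenoCre arrays from 3 h on stood above those at 0 and 1 h. Its log2 difference was 2.15 ± 0.30 (SE, 5 pairs, adjusted p = 0.00345), or 4.43-fold. The difference was 1.28 and 0.98 at 0 and 1 h and 2.59, 2.83 and 3.05 at 3, 6 and 9 h.

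Rchy1 read 10.15, 10.15, 10.33, 10.51 and 10.68 with AdenoCre, against 9.72, 9.71, 9.73, 9.96 and 9.93 with AdenoGFP. The groups did not overlap, and the increase was smaller than that of Mdm2 or Ccng1, at 0.56 ± 0.08 (SE, 5 pairs, adjusted p = 0.0045), or 1.47-fold. Ppm1d read 7.77, 7.79, 8.39, 8.85 and 8.46 with AdenoCre, against 7.61, 7.41, 7.64, 7.65 and 7.97 with AdenoGFP. It was higher with AdenoCre at each of the 5 times, by 0.17, 0.38, 0.75, 1.20 and 0.48, although the groups overlapped. Its log2 difference of 0.59 ± 0.14 had an adjusted p of 0.0242, which became 0.0837 when 3 h was left out (0.56), 0.0556 when 9 h was left out (0.62) and 0.0818 without pairing by time.

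Mdm4 read 8.07, 7.66, 7.84, 7.54 and 8.14 with AdenoCre, against 8.36, 8.32, 7.91, 7.39 and 7.39 with AdenoGFP. The groups overlapped, and the sign of the difference changed over time, with −0.30, −0.65 and −0.07 at 0, 1 and 3 h and 0.15 and 0.75 at 6 and 9 h. The mean difference was −0.02 ± 0.18 (adjusted p = 0.94), with a 95% interval from −0.43 to 0.38, and it was positive when either early pair was left out (0.05 without 0 h and 0.13 without 1 h). A second Mdm4 probe set above the filter had a difference of 0.16 ± 0.24.

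**Figure D1:**
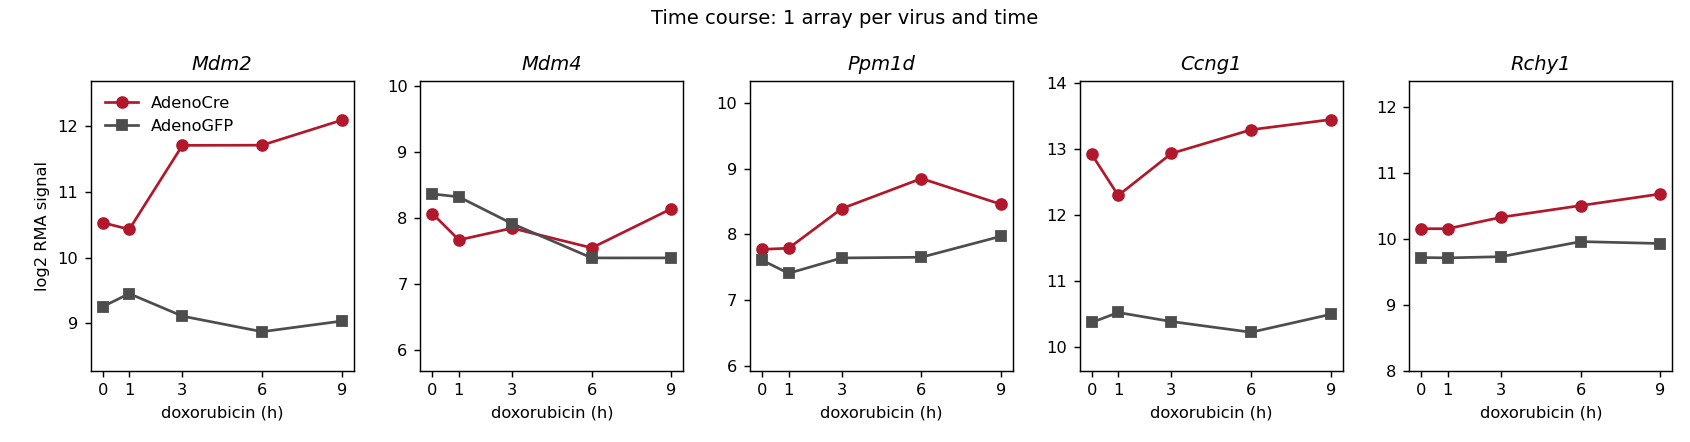
Log2 RMA signal (vertical axis, the same span of 4.4 log2 units in each panel) of the 5 regulators against hours of doxorubicin (horizontal axis), with 1 array per point. Mdm2, Ccng1 and Rchy1 with AdenoCre (red circles) lie above every AdenoGFP array (grey squares), the Ppm1d lines are separate at each time, and the Mdm4 lines cross.

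Change over time within each virus was fitted as a slope on hours. With AdenoCre, Mdm2 rose by 0.18 ± 0.03 log2 units per h (adjusted p = 0.0177) and Rchy1 by 0.06 ± 0.01 per h (adjusted p = 0.0438), where 3.94% of tested genes had a rising slope and 5.4% were called. Ppm1d (0.10 ± 0.03 per h, adjusted p = 0.0981), Ccng1 (0.10 ± 0.03, adjusted p = 0.0884) and Mdm4 (0.01 ± 0.03, adjusted p = 0.907) did not pass. Both calls were fragile. The Mdm2 slope missed the threshold without the 0 h (0.18), 1 h (0.16), 6 h (0.18) or 9 h pair (0.23), with adjusted p of 0.114, 0.0856, 0.056 and 0.0815. The Rchy1 slope missed it without any 1 of the 5 pairs, at slopes of 0.06 or 0.07 and adjusted p between 0.0922 and 0.266. Without the 9 h pair, the Ppm1d slope was 0.19 and passed (adjusted p = 0.0234).

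With AdenoGFP none of the 5 slopes passed limma's test, where 0.00789% of genes did, and 1 of the 5 had an unadjusted p below 0.05. That gene was Mdm4, with a slope of −0.12 ± 0.03 per h, an unadjusted p of 0.00181 and an adjusted p of 0.203. The difference between the slopes of the viruses passed for none of the 5, where 0.181% of genes passed, and 3 of the 5 had an unadjusted p below 0.05. It was 0.23 ± 0.05 per h for Mdm2 (adjusted p = 0.147), 0.13 ± 0.04 for Mdm4 (adjusted p = 0.342) and 0.10 ± 0.04 for Ccng1 (adjusted p = 0.544).

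The promoters of the 4 genes called higher with AdenoCre are shown, chosen by that rise, with the p53 decamer in capitals. The decamer is the 10-base unit that stands in pairs in p53 response elements, and its consensus letters were searched exactly on both strands, which for this motif give the same matches. The windows run from 250 bases before to 50 bases after the annotated start and come from RefSeq (GRCm38.p6), and each is printed 5′ to 3′ on the gene's strand. Exact decamers stood in 8.36% of 32851 such windows, and 9.55% of 27025 genes had a window with at least 1. The genes lie at chr10:117688875-117710758 (Mdm2), chr1:132986105-133030587 (Mdm4), chr11:85311254-85347071 (Ppm1d), chr11:40748552-40755309 (Ccng1) and chr5:91948842-91963145 (Rchy1).
Ccng1, chr11:40755237-40755536, minus strand: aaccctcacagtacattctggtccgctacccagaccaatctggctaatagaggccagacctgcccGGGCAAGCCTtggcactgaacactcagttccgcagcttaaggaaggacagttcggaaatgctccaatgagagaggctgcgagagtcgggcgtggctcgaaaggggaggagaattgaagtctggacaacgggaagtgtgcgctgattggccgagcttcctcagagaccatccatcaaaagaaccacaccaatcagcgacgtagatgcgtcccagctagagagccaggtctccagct
Mdm2, chr10:117710709-117711008, minus strand: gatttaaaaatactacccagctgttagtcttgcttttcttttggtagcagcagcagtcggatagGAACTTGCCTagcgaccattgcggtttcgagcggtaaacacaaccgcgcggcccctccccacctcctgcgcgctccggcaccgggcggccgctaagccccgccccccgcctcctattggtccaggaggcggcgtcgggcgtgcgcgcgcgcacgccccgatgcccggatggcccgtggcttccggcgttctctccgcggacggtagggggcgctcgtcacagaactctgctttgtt
Ppm1d, chr11:85311004-85311303, plus strand: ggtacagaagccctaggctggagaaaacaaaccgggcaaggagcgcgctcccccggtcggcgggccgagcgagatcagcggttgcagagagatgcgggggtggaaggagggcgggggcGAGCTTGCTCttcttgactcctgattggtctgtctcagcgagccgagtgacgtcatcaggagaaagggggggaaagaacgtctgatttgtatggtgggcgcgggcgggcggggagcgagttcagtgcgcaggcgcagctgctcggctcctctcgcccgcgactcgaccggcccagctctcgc
Rchy1, chr5:91962507-91962806, minus strand: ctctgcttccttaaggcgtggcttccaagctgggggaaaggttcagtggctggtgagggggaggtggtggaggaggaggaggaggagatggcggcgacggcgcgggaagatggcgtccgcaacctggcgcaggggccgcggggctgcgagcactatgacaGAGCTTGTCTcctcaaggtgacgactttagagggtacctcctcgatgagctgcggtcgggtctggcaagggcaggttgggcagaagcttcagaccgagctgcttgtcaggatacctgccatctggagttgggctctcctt

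The Ccng1 match was the second unit of a pair, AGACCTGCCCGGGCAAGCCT at chr11:40755462-40755481 on the minus strand, with 0 bases between the units and 1 mismatch to the paired consensus. Such a pair, with 0 to 13 bases between the units and at most 1 mismatch, stood in 1.09% of windows. The first base of the decamer lay 185 bases before the start in Ccng1, 186 in Mdm2, 132 in Ppm1d and 90 in Rchy1. In Mdm2, Ppm1d and Rchy1 the best pair had 4, 3 and 3 mismatches. The Rchy1 window shown belongs to a start inside the gene span, and its other window held no match, and neither did the 2 windows of Mdm4. A match describes these letters and is not shown to be a site, and no match says only that the letters are not in these windows.

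Knockdown of p53 was compared within AdenoCre cells, so it does not involve the virus contrast. In the lincP21KD experiment, 4 of the 5 regulators fell with siP53 compared with siScramble, where 5.74% of all tested genes fell, 7.01% rose and 12.7% were called. Mdm2 fell most of the 5 and ranked 7 from the lowest of all tested genes, followed by Ccng1, Ppm1d and Rchy1, and Mdm4 did not pass the test. The median log2 difference was −0.76 over the regulators and 0.02 over all tested genes.

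Mdm2 read 9.66, 9.51 and 9.99 with siP53, against 12.003 and 12.16 with siScramble, a log2 difference of −2.36 ± 0.15 (SE, adjusted p = 1.59e-05). The siP53 level was 0.195 of the siScramble level. Ccng1 read 11.83, 11.89 and 12.06 with siP53, against 13.47 and 13.52 with siScramble, and fell by 1.58 ± 0.10 (adjusted p = 1.03e-05). In both genes the arrays of the groups lay far apart compared with the spread within a group.

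Ppm1d read 7.71, 7.60 and 7.98 with siP53, against 8.58 and 8.46 with siScramble, a difference of −0.76 ± 0.11 (adjusted p = 0.00196). Rchy1 read 10.48, 10.44 and 10.59 with siP53, against 10.80 and 10.88 with siScramble, a difference of −0.33 ± 0.08 (adjusted p = 0.026). The groups did not overlap in either gene. The Rchy1 call was lost without siP53 replicate 1 (−0.32, adjusted p = 0.0691) or 2 (−0.30, 0.0744) and without siScramble replicate 1 (−0.37, 0.101) or 2 (−0.30, 0.188). Mdm4 read 7.86, 8.08 and 7.99 with siP53, against 8.29 and 8.31 with siScramble, a difference of −0.32 ± 0.13 (adjusted p = 0.153) that passed without siLincp21 replicate 3, which enters only through the shared spread (adjusted p = 0.0294), or with array weights (−0.33, adjusted p = 0.0428).

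In the hnRNPKKD experiment the same 4 genes fell with siP53 compared with siControl, where 19.2% of all tested genes fell, 19.3% rose and 38.6% were called. Mdm2 fell most of the 5, and ranked 20 from the lowest of all tested genes. Ppm1d, Ccng1 and Rchy1 each fell to about 0.5 of the siControl level, although the other Ccng1 probe sets fell further (−2.18 and −2.26). The median log2 difference was −1.01 over the regulators and −0.01 over all tested genes.

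Mdm2 read 8.55, 9.74 and 8.65 with siP53, against 12.25, 12.08 and 12.27 with siControl, a log2 difference of −3.22 ± 0.23 (SE, adjusted p = 7.18e-07). The siP53 level was 0.107 of the siControl level. siP53 replicate 2 was the highest of the 3 siP53 arrays, also for Rchy1 and Cdkn1a, and without it the Mdm2 difference was −3.60. Rchy1 read 9.61, 10.11 and 9.67 with siP53, against 10.88, 10.83 and 10.88 with siControl, a difference of −1.06 ± 0.12 (adjusted p = 3.01e-05). Ppm1d read 7.55, 7.65 and 7.73 with siP53, against 8.82, 8.53 and 8.62 with siControl, a difference of −1.01 ± 0.10 (adjusted p = 6.01e-06). None of these groups overlapped.

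Ccng1 read 12.89, 12.81 and 12.76 with siP53, against 13.97, 13.61 and 13.89 with siControl, a difference of −1.01 ± 0.10 (adjusted p = 1.21e-05). Its 2 other probe sets fell further, with differences of −2.18 ± 0.24 and −2.26 ± 0.19, and the mean over its probe sets was −1.81. Mdm4 read 6.89, 6.84 and 6.95 with siP53, against 6.99, 6.88 and 7.08 with siControl, and the groups overlapped. Its difference was −0.09 ± 0.11 (adjusted p = 0.562), with a 95% interval from −0.32 to 0.14. The second Mdm4 probe set above the filter read 5.15, 5.55 and 5.15 with siP53, against 6.03, 5.72 and 6.05 with siControl, and fell by 0.65 ± 0.13 (adjusted p = 0.00269 over 27064 probe sets). The Mdm4 probe sets disagree on whether Mdm4 fell in this experiment.

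**Figure D2:**
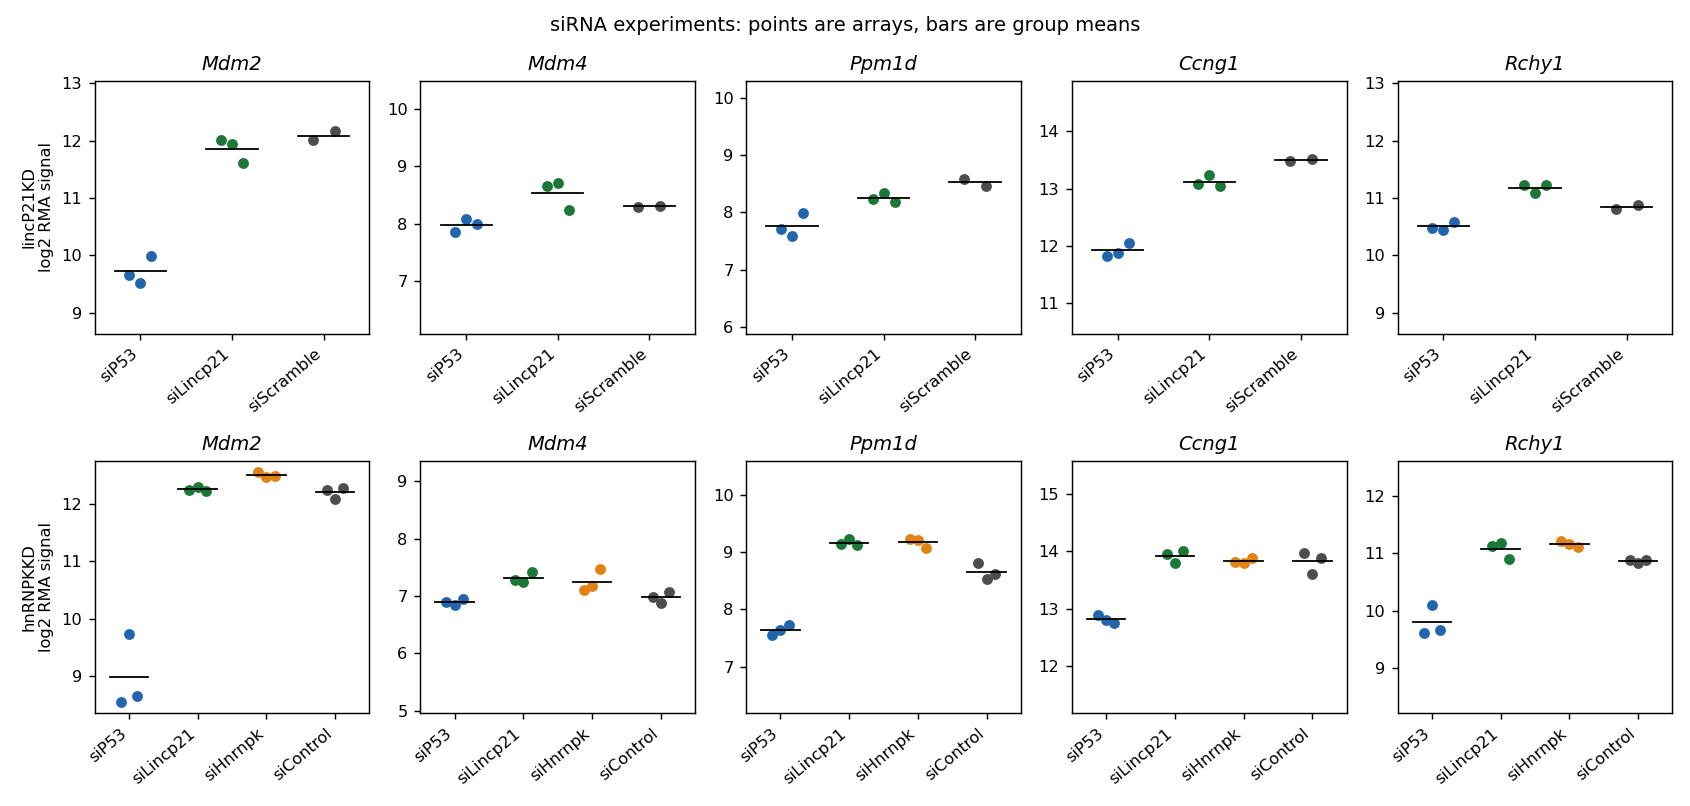
Log2 RMA signal (vertical axis, the same span of 4.4 log2 units in each panel) of the 5 regulators in the lincP21KD (top) and hnRNPKKD (bottom) experiments, by siRNA (horizontal axis), with arrays as points and group means as bars. The siP53 arrays (blue) lie below every control array (grey) for Mdm2, Ppm1d, Ccng1 and Rchy1 in both experiments.

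**Figure D3:**
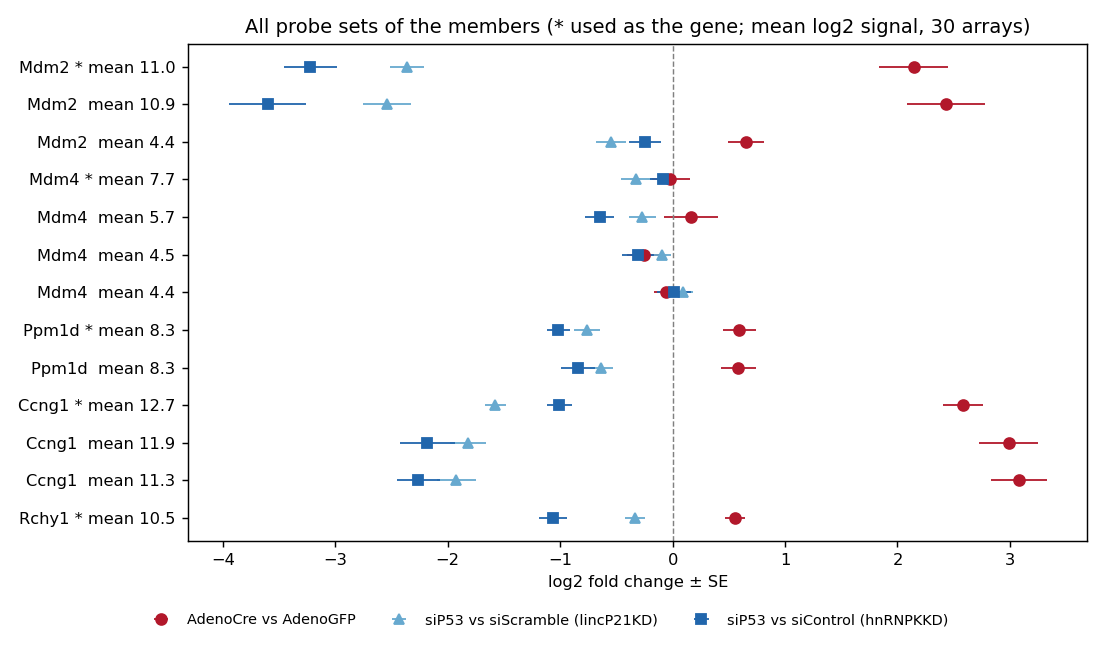
Log2 fold change ± SE (horizontal axis) for each of the 13 probe sets of the 5 regulators (rows, with their mean log2 signal and a star on the probe set used for the gene). The 2 bright Mdm2 probe sets and the 3 Ccng1 probe sets have increases with AdenoCre of 2.15 to 3.08, while the dimmest Mdm2 probe set, which lies below the filter, has 0.65.

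The siP53 changes were also compared between the 2 experiments, each against its own control. The fall of Rchy1 was larger in the hnRNPKKD than in the lincP21KD experiment (difference −0.73 ± 0.16, adjusted p = 0.00574), and that of Ccng1 was smaller (0.57 ± 0.15, adjusted p = 0.0136), where 14.5% of all tested genes differed. The Ccng1 difference missed the threshold without siScramble replicate 2 (0.55, adjusted p = 0.0693) and was −0.04 with the mean over its probe sets. The 2 other Ccng1 probe sets had the opposite sign, at −0.36 ± 0.33 and −0.34 ± 0.29. Neither passed (adjusted p = 0.562 and 0.519 over 27064 probe sets), so the direction for Ccng1 depends on the probe set. Mdm2 differed by −0.86 ± 0.32 (adjusted p = 0.0785), and by −1.24 (adjusted p = 6.71e-05) without siP53 replicate 2 of the hnRNPKKD experiment. Ppm1d (−0.26 ± 0.15) and Mdm4 (0.23 ± 0.18) did not pass.

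With siLincp21 the regulators did not move together. In the lincP21KD experiment Ccng1 fell and Rchy1 rose compared with siScramble, where 4.39% of all tested genes fell, 7.47% rose and 11.9% were called. Ccng1 read 13.07, 13.24 and 13.04 with siLincp21, against 13.47 and 13.52 with siScramble (difference −0.38 ± 0.10, adjusted p = 0.0292). Rchy1 read 11.23, 11.08 and 11.23 with siLincp21, against 10.80 and 10.88 with siScramble (difference 0.34 ± 0.08, adjusted p = 0.0264). In both genes the arrays of the 2 groups did not overlap, yet each call was lost without siLincp21 replicate 1 or 3 or without either siScramble array. The Ccng1 values without them ran from −0.40 to −0.34 (adjusted p from 0.0627 to 0.169), the mean over the Ccng1 probe sets was −0.39 (adjusted p = 0.0838), and the Rchy1 values from 0.30 to 0.38 (adjusted p from 0.0515 to 0.204). Mdm2 (−0.23 ± 0.15), Ppm1d (−0.27 ± 0.11) and Mdm4 (0.24 ± 0.13) did not pass, and Mdm4 did so without siLincp21 replicate 3 (0.38, adjusted p = 0.031) or with array weights (0.34, adjusted p = 0.0312). The second Mdm4 probe set above the filter differed by only 0.03 ± 0.12 (adjusted p = 0.922 over 27064 probe sets). The second Ppm1d probe set read 7.99, 8.06 and 8.16 with siLincp21, against 8.45 and 8.67 with siScramble, and fell by 0.49 ± 0.10 (adjusted p = 0.0151 over 27064 probe sets). The mean over the Ppm1d probe sets also passed (−0.38, adjusted p = 0.0162), so the Ppm1d call in this comparison depends on the probe set.

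In the hnRNPKKD experiment Ppm1d and Mdm4 rose with siLincp21 compared with siControl, where 17.2% of all tested genes rose, 11.8% fell and 29% were called. Ppm1d read 9.14, 9.22 and 9.13 with siLincp21, against 8.82, 8.53 and 8.62 with siControl (difference 0.51 ± 0.10, adjusted p = 0.00173). Mdm4 read 7.28, 7.25 and 7.41 with siLincp21, against 6.99, 6.88 and 7.08 with siControl (difference 0.33 ± 0.11, adjusted p = 0.0339). The Mdm4 call was lost without any 1 of the 3 siLincp21 arrays or without siControl replicate 1 or 2, at values from 0.28 to 0.36 and adjusted p from 0.0523 to 0.124, and with the mean over its probe sets (0.12, adjusted p = 0.379). Mdm2 (0.05 ± 0.23), Ccng1 (0.09 ± 0.10) and Rchy1 (0.21 ± 0.12) did not pass, and Rchy1 did so with array weights (0.25, adjusted p = 0.0184). For Ppm1d the siLincp21 change differed between the experiments by 0.78 ± 0.15 (adjusted p = 0.00314), hnRNPKKD minus lincP21KD, where 8.14% of all tested genes differed. For Ccng1 the difference was 0.47 ± 0.15 (adjusted p = 0.0548), and it passed without siControl replicate 1 (0.55), siLincp21 replicate 2 of either experiment (0.53 each) or siP53 replicate 2 or 3 of the hnRNPKKD experiment (0.47 each).

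With siHnrnpk, Ppm1d was the member that rose compared with siControl, where 14.1% of all tested genes rose and 26.9% were called. Ppm1d read 9.23, 9.21 and 9.07 with siHnrnpk, against 8.82, 8.53 and 8.62 with siControl (difference 0.51 ± 0.10, adjusted p = 0.00171). Its second probe set had 0.49 ± 0.15. Mdm2 read 12.55, 12.46 and 12.49 with siHnrnpk, against 12.25, 12.08 and 12.27 with siControl (0.30 ± 0.23, adjusted p = 0.389). Rchy1 differed by 0.30 ± 0.12 (adjusted p = 0.0993). The arrays of the groups did not overlap in either gene, and both passed without siP53 replicate 2, which enters only through the shared spread (adjusted p = 0.0104 for Mdm2 and 0.0157 for Rchy1). Mdm4 differed by 0.27 ± 0.11 (adjusted p = 0.0842), and with the replicate number as a block the same difference had an adjusted p of 0.0356. The second Mdm4 probe set above the filter differed by only 0.01 ± 0.13 (adjusted p = 0.969 over 27064 probe sets). Ccng1 differed by 0.01 ± 0.10.

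**Figure D4:**
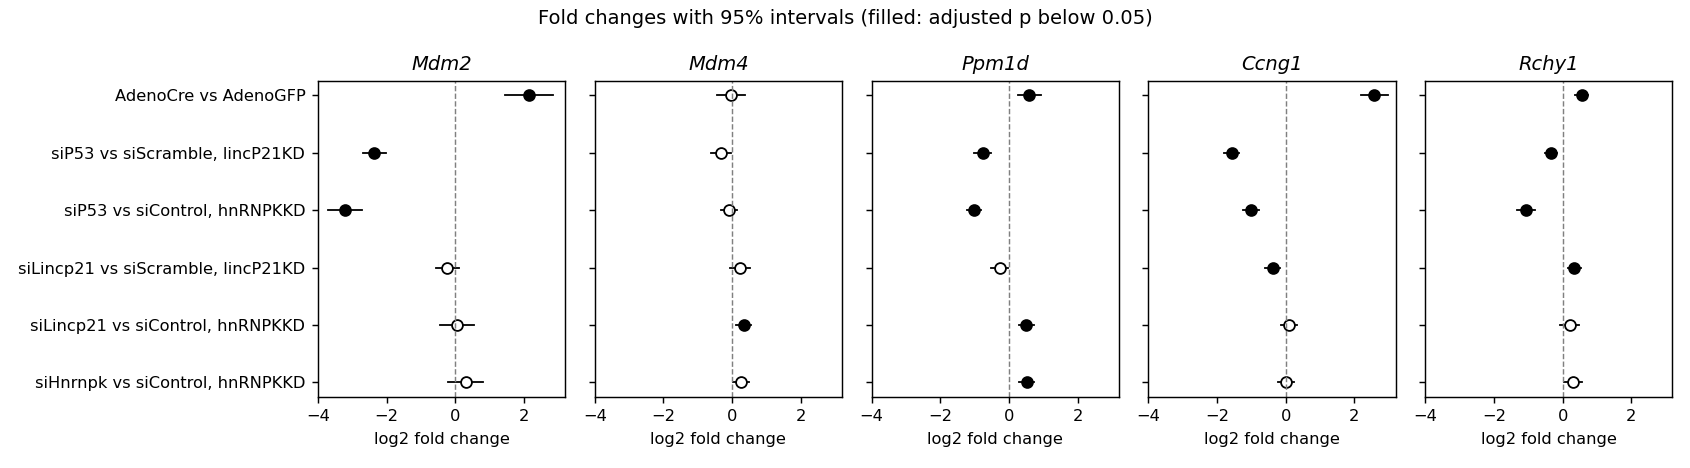
Log2 fold change (horizontal axis) of the 5 regulators in 6 comparisons (rows), with 95% intervals as lines and filled points for an adjusted p below 0.05. Mdm2, Ppm1d, Ccng1 and Rchy1 are to the right of 0 with AdenoCre and to the left with siP53 in both experiments, and no Mdm4 point is filled in these 3 rows.

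Compared with the other knockdowns, all 5 regulators were called lower with siP53, read from the brightest probe set of each. In the lincP21KD experiment the log2 differences of siP53 from siLincp21 lay between −2.13 (Mdm2) and −0.49 (Ppm1d), where 11.2% of all tested genes were lower. The second Ppm1d probe set read 7.84, 7.92 and 8.03 with siP53, against 7.99, 8.06 and 8.16 with siLincp21, where the groups overlapped. Its difference of −0.14 ± 0.09 did not pass (adjusted p = 0.322), while the mean over both Ppm1d probe sets (−0.31) did. In the hnRNPKKD experiment they lay between −3.28 (Mdm2) and −0.42 (Mdm4) against siLincp21, where 21.3% of genes were lower, and between −3.52 (Mdm2) and −0.36 (Mdm4) against siHnrnpk, where 22.9% were. Mdm4 is called in each of these, at −0.56 ± 0.12, −0.42 ± 0.11 and −0.36 ± 0.11, the first against siLincp21 in the lincP21KD experiment. The first call was lost with the mean over its probe sets (−0.18, adjusted p = 0.0774) and the last without siHnrnpk replicate 3 (−0.24, adjusted p = 0.0806). Between siLincp21 and siHnrnpk none of the 5 passed limma's test, none had an unadjusted p below 0.05, and 27.6% of all tested genes were called, although Mdm2 passed without siP53 replicate 2 (−0.25, adjusted p = 0.0289).

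Other genes of the pathway were read from lists chosen for their role. Of 24 known p53-activated targets outside the 5, 20 rose with AdenoCre, 20 fell with siP53 in the lincP21KD experiment (1 rose) and 21 fell in the hnRNPKKD experiment (1 rose), with median log2 differences of 1.72, −1.08 and −1.90. Of all tested genes 12.9% rose with AdenoCre. With siP53 5.74% fell and 7.01% rose in the lincP21KD experiment, and 19.2% fell and 19.3% rose in the hnRNPKKD experiment. The medians over all tested genes were 0.04, 0.02 and −0.01. The list of targets was chosen with earlier results of these data known and is not independent evidence of its direction. Eda2r, a member of the TNF receptor family, rose by 4.49 ± 0.31 with AdenoCre. Perp, a membrane protein of the apoptotic response, fell by 2.37 ± 0.11 with siP53 in the lincP21KD and by 3.27 ± 0.13 in the hnRNPKKD experiment.

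Lists of proteins that work with the regulators were read beside the 19.1% of all tested genes called with AdenoCre (12.9% higher and 6.24% lower). Of 12 other p53 ubiquitin ligases and deubiquitinases, 1 fell (the SUMO and ubiquitin ligase Topors, −0.45 ± 0.12), and the median was −0.03. Of 11 measured Mdm2 and Mdm4 partners of 13 listed, 1 fell (the Mdm2-binding protein Mtbp, −0.58 ± 0.13). Of 9 damage kinases and known Wip1 substrates, 1 fell (the checkpoint kinase Chek1, −0.66 ± 0.16). None of the 11 cyclin G partners passed limma's test, and 5 had an unadjusted p below 0.05, as did 33.4% of all tested genes. Of 10 measured Ppm1 phosphatases of 11 listed, 2 rose, Ppm1f (0.51 ± 0.09) and Ppm1h (0.45 ± 0.11), a share near that of all tested genes.

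With siP53 in the lincP21KD experiment, where 12.7% of all tested genes were called and 26.2% had an unadjusted p below 0.05, none of the 12 ligases and deubiquitinases, the 9 kinases and substrates or the 11 Mdm2 and Mdm4 partners passed limma's test, and 0, 2 and 2 of them had such an unadjusted p. Ppp2r5c, a regulatory subunit of PP2A, fell by 0.43 ± 0.09, and Ppp2r1b, a scaffold subunit, rose by 0.39 ± 0.08. Ppm1f fell by 0.39 ± 0.10 (adjusted p = 0.026), and Ppm1m by 0.28 ± 0.08. In the hnRNPKKD experiment, where 38.6% of all tested genes were called with siP53 (19.3% higher and 19.2% lower), 1 ligase fell, Siah1a (−0.42 ± 0.12), and 2 Mdm2 and Mdm4 partners rose, Mtbp (0.37 ± 0.09) and the nucleolar Gnl3 (0.45 ± 0.10). Of the kinases and substrates, Chek1 rose by 0.82 ± 0.14 and the repair protein Xpa fell by 1.28 ± 0.17. Of the cyclin G partners 1 rose and 4 fell, with Ppp2r1b at 0.90 ± 0.12 and Ccng2, the relative of Ccng1, at −0.82 ± 0.11. Of the Ppm1 phosphatases 2 rose, Ppm1g (0.77 ± 0.15) and Ppm1h (0.72 ± 0.16), and 2 fell. The 5 of 11 cyclin G partners and 4 of 10 Ppm1 phosphatases called are near the share of all tested genes.

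The likeness of expression patterns was measured as Pearson's r over the 30 arrays after each experiment was centred on its mean, as a description, since the arrays share groups and the groups set much of the pattern. Among the 5 regulators r was highest between Mdm2 and Rchy1 (0.935), was 0.901 for Ppm1d with Mdm2 and with Rchy1, and lay between 0.267 and 0.422 for Mdm4 with each of the others. The genes most like Mdm2 were Zfp365 (0.987), Dcxr (0.979) and Cox6b2 (0.976), and those most like Ccng1 were Trp53inp1 (0.969), Eda2r (0.966) and Cdkn1a (0.953). For Rchy1 they were Bloc1s2 (0.974), Siva1 (0.968) and Bscl2 (0.966), and for Ppm1d they were Sdhaf1 (0.947), Bloc1s2 (0.946) and Trim7 (0.944). Mdm4 had no gene above 0.772 (Eif4a2), with Kdm4c (0.760) and Tvp23b (0.748) next.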

How the data were processed

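RNA was hybridised to 30 Affymetrix arrays, 1 biotin-labelled sample each. The authors deposited log2 signals. Per the submitters' processing notes these were made with RMA, of which the version and settings are not given in the sources used here. RMA signals compress large differences, and the number of arrays limits the precision. The values were used without further scaling. Of 45101 probe sets, 34958 had 1 gene symbol, 932 several and 9211 none in the platform annotation. The 34958 with 1 symbol gave 18194 genes, each read from its probe set with the highest mean. For 34754 of these probe sets the symbol was taken from a current entry. Probe sets whose mean was among the lowest 40% (log2 limit 4.54) were not tested, leaving 12675 tested genes.

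Each experiment had its own linear model in limma 3.58.1 (lmFit and eBayes, R 4.3.3), with Benjamini-Hochberg adjustment over all tested genes. The virus effect had time as a block, slopes were on hours within virus, siRNA groups were means in 1 fit, and differences between experiments came from a joint fit of 20 arrays. The code was tested on simulated data. No deposited columns were identical, and the labels give no batch. Replicate numbers were taken to pair arrays where 3 same-numbered pairs each had correlated deviations above 0.1. This held for siHnrnpk with siControl (0.216, 0.166 and 0.209). In 2 other comparisons with 3 pairs the correlations were all above 0 but not all above 0.1. They ran from 0.054 to 0.341 for siP53 with siLincp21 in lincP21KD and from 0.011 to 0.204 for siHnrnpk with siLincp21. Higher single values stood beside negative ones in the hnRNPKKD experiment. These were −0.033, 0.631 and 0.694 for siLincp21 with siP53, and 0.357, 0.359 and −0.186 for siP53 with siControl. So only for siHnrnpk with siControl were the numbers taken to mark pairs, which rests on the data since the design does not state it. The siHnrnpk results above were still fitted without pairs. With the replicate block 2 of the 5 members passed in that comparison, against 1 without it.

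The genes, lists and tests were chosen with earlier results of these data known. Genes outside the 5 were named by a rule: Cdkn1a, Hnrnpk, the 3 genes most like each member, and from each list up to 2 called genes with the largest change with AdenoCre and with siP53 in each experiment. Alternatives covered the filter, scaling, variance model, array weights, mean of probe sets, blocks, log2 hours and leaving out each array or pair. The RAS experiment of the study is not used here.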

Additional observations from a re-analysis of the deposited data

Results flagged for a closer look

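For 3 results the change in 1 siRNA experiment differed from that in the other by a test of the difference itself (limma, joint fit of both experiments, hnRNPKKD minus lincP21KD). The siP53 change of Ccng1 differed by 0.57 ± 0.15, from changes of −1.01 in the hnRNPKKD and −1.58 in the lincP21KD experiment, and with the mean over the Ccng1 probe sets the difference was −0.04. The 2 other Ccng1 probe sets had the opposite sign, at −0.36 ± 0.33 and −0.34 ± 0.29. The siP53 change of Rchy1 differed by −0.73 ± 0.16, from −1.06 in the hnRNPKKD and −0.33 in the lincP21KD experiment. The siLincp21 change of Ppm1d differed by 0.78 ± 0.15, from 0.51 in the hnRNPKKD and −0.27 in the lincP21KD experiment. Its second probe set differed by 1.13 ± 0.20. Dixon's criterion for an array that stands apart was applied only to the time course, where the 5 arrays of a virus are different times and not replicates, and no member met it there. The siRNA groups of 2 or 3 arrays were not examined this way, and in the hnRNPKKD experiment siP53 replicate 2 read 9.74 for Mdm2, beside 8.55 and 8.65 in the other siP53 arrays.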

How the results depend on the processing

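Over 720 member values against the experiments' own controls and as slopes, 658 kept their direction and their side of the threshold under the alternatives run, 35 lost a call, 13 gained one and 14 changed sign. The AdenoCre and siP53 changes of Mdm2 and Ccng1 kept their calls under every alternative run. The causes of the changes below were not tested. Array weights also raised the share of all tested genes called in the siRNA comparisons. Against siScramble it went from 12.7% to 17.8% for siP53 and from 11.9% to 19.2% for siLincp21. Against siControl it went from 29% to 44.7% for siLincp21 and from 26.9% to 45.4% for siHnrnpk. For the differences between the experiments it went from 14.5% to 49.4% (siP53) and from 8.14% to 22.1% (siLincp21). Of the 5 members, the number called for the AdenoCre slope was 2, and 1 with no filter, with arrays centred, with array weights or with log2 hours, 3 with trended robust variances (Ccng1 added, adjusted p = 0.0414), and 0 to 1 over leave-outs. For siLincp21 it was 2 against siScramble (3 with array weights, with Mdm4 added at 0.0312; 2 with the mean of probe sets, with Ppm1d in place of Ccng1; 0 to 2 over leave-outs) and 2 against siControl (1 with the mean of probe sets, 3 with array weights, with Rchy1 added at 0.0184, and 1 to 2 over leave-outs). For siP53 against siScramble it was 4 (5 with array weights, 3 to 5 over leave-outs). For siHnrnpk against siControl it was 1, and 3 with array weights, 2 with the replicate block and 1 to 3 over leave-outs, and for siLincp21 against siHnrnpk 0 (0 to 1 over leave-outs). For the difference of the siP53 changes it was 2, and 1 with the mean of probe sets, 4 with array weights and 1 to 3 over leave-outs, and for that of the siLincp21 changes 1, and 2 with the 60% filter, quantile scaling, trended robust variances, array weights or the replicate block, and 1 to 2 over leave-outs.

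The replicate block changed the call of Mdm4 with siHnrnpk (0.27, adjusted p = 0.0356) and of Ccng1 in the difference of the siLincp21 changes (0.49, adjusted p = 0.0439), and no other member's call. Over all 1380 member values, with the comparisons between knockdowns and between experiments included, 24 changed sign. Of these, 1 belonged to a call, the Ccng1 difference of the siP53 changes (−0.043 with the mean of probe sets). The others were small: the Mdm4 slope with AdenoCre was −0.011 with array weights and −0.015 on log2 hours, the Ccng1 slope with AdenoGFP 0.001 with arrays centred, Ccng1 with siHnrnpk −0.02 with array weights, Ppm1d between siLincp21 and siHnrnpk 0.069 and the Mdm4 difference of the siP53 changes −0.11 with the mean of probe sets, and the Mdm4 difference of the siLincp21 changes −0.072 with array weights. Over leave-outs the ranges that crossed 0 were −0.22 to 0.13 (Mdm4, AdenoCre), −0.064 to 0.042 (Mdm4, AdenoCre slope), −0.035 to 0.008 (Ccng1, AdenoGFP slope), −0.005 to 0.091 (Mdm2, siLincp21, hnRNPKKD), −0.016 to 0.167 (Ccng1, siLincp21, hnRNPKKD), −0.098 to 0.085 (Ccng1, siHnrnpk), −0.013 to 0.173 (Mdm4) and −0.056 to 0.024 (Ppm1d) between siLincp21 and siHnrnpk, and −0.05 to 0.185 (Mdm4, difference of the siLincp21 changes). The share of all tested genes called ran from 9.05% to 26.4% over the alternatives with AdenoCre, and with siP53 from 4.89% (without siScramble replicate 1) to 17.8% in the lincP21KD and from 26.6% (no filter) to 70% (array weights) in the hnRNPKKD experiment. Where siScramble keeps 1 array, that array is assumed to vary like the other groups. Among the genes called between siP53 and siLincp21 in the lincP21KD experiment, 45.1% were higher with siP53, and 32.6% with arrays centred.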

Other observations

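With siLincp21 in the hnRNPKKD experiment, 6 of the 12 other p53 ubiquitin ligases and deubiquitinases fell compared with siControl and none rose, with a median log2 difference of −0.33 (0.01 over all tested genes, of which 11.8% fell). In the lincP21KD experiment 1 of the same 12 fell with siLincp21 compared with siScramble, with a median of −0.07 (0.01 over all tested genes, of which 4.39% fell). The change differed between the experiments for 2 of the 12, both lower in the hnRNPKKD experiment, and for 8.14% of all tested genes. Of the 24 p53-activated targets, 8 rose and 3 fell with siLincp21 in the hnRNPKKD experiment, where 17.2% of all tested genes rose and 11.8% fell. In the lincP21KD experiment 2 of the 24 rose and 3 fell, where 7.47% of all tested genes rose and 4.39% fell.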
